A study of Aedes aegypti with 6 samples.

Results

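The JAK-STAT pathway carries signals from secreted cytokines to the nucleus. In Drosophila, an Unpaired ligand binds the receptor Domeless, the kinase Hopscotch, a Janus kinase (JAK), is activated at the receptor, and the transcription factor STAT is phosphorylated and enters the nucleus. PIAS proteins (protein inhibitors of activated STAT) bind STAT and act as SUMO ligases, and they counter the pathway. In the Drosophila testis, ligand from the hub at the tip of the organ acts through this pathway on the germline and cyst stem cells, and in mosquitoes the pathway is known mainly for its part in antiviral defence.

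The genes examined were chosen by identifier, with 4 identifiers listed as parts of the pathway. Rows for 2 of them were read from a table of 12813 genes: AAEL012553, named as Hopscotch, with 1 transcript, and AAEL015099, named as PIAS, with 7 transcripts, which makes 8 of the table's 13471 transcript rows. Domeless (AAEL012471) and STAT (AAEL009692) were not analysed here, so the values below cover a kinase and an inhibitor and neither the receptor nor the transcription factor. The gene names come from that choice of identifiers, since the values carry identifiers alone. PIAS was 1 of 4 genes with 7 or more transcript rows.

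Total RNA was taken from pupal testes of the mosquito Aedes aegypti, at the early pupal stage, in 3 separate extracts of the meiotic drive strain T37 and 3 of RED, a strain without drive. In meiotic drive, 1 chromosome of a pair enters most of the gametes. Rearing conditions were shared by the strains (26°C, 80% humidity, 16 h light and 8 h dark), and no treatment is listed. Each extract was hybridised to a one-colour array, on which the brightness of a transcript's features, its intensity, stands for the abundance of that transcript. There is 1 strain of each kind, so an effect of the drive and any other difference between the strains cannot be told apart, and in a whole organ fewer cells of a type and less RNA per cell cannot be told apart either. The free-text notes of the RED samples call them T37 replicates, whereas their titles, source names and strain labels give RED, which was followed here. The tissue label was not checked, because the identifiers could not be paired with marker names.

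RED replicate 3 stood apart from the other arrays. Across genes its log2 intensities correlated at r = 0.874 to 0.908 with each of the other 5 arrays, whereas the 2 other RED arrays correlated at 0.974 with each other. Some pairs across strains were as low: RED replicate 1 correlated at 0.894 and 0.893 with T37 replicates 1 and 2. T37 replicate 3 correlated at 0.948 and 0.958 with T37 replicates 1 and 2, and at 0.938 with each of RED replicates 1 and 2. The dim end of the arrays also differed: the 5th percentile of log2 intensity over genes was 6.94, 6.99 and 7.37 on T37 replicates 1, 2 and 3, and 7.61, 7.45 and 6.47 on RED replicates 1, 2 and 3. Median intensities were close, between 1836 and 1985. Results for PIAS are therefore also given without RED replicate 3.

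Hopscotch, the kinase of the pathway, was measured on every array and its strains were interleaved. Its intensity was 1330, 1174 and 692 on T37 replicates 1, 2 and 3. In RED it was 482, 861 and 1150 on replicates 1, 2 and 3. The highest readings were on T37 replicates 1 and 2, closely followed by RED replicate 3. The lowest was on RED replicate 1, and T37 replicate 3 lay below RED replicate 2. The highest and lowest arrays differed 2.76-fold, and the 3 arrays with the highest readings were the 3 with the lowest 5th percentile. Whether the dim end of the arrays plays a part in the Hopscotch values was not tested.

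The mean log2 intensity of Hopscotch was 10.003 ± 0.50 (SD, n = 3) for T37 and 9.61 ± 0.64 (SD, n = 3) for RED. The difference, T37 minus RED, was 0.39 (SE 0.40, 95% interval -0.59 to 1.38; limma adjusted p = 0.64 over all genes), which is smaller than either SD. In fold terms the interval runs from 1.51-fold lower to 2.60-fold higher in T37, so a 2-fold difference in that direction is not excluded by these arrays. Single arrays moved the difference widely: it was 0.04 without RED replicate 1, 0.21 without T37 replicate 1, 0.68 without T37 replicate 3 and 0.67 without RED replicate 3, none past the threshold. Of all genes, 80.6% had a smaller SD than Hopscotch in T37 and 76.5% in RED, so this gene was among the more variable ones in both strains. Genes of every intensity are counted here. Between 20.0% and 42.9% of genes were dimmer than Hopscotch on an array, and whether its spread goes with its intensity was not tested. A difference of larger size was seen in 46.6% of genes.

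The average of the 7 PIAS transcripts varied less than Hopscotch, which is 1 row. Averaging rows that move apart narrows a spread, so the 2 are not like measures. In RED the SD of the average, 0.18, was below that of each of its 7 rows, of which RA had the lowest, 0.21. In T37 some rows, such as RD at 0.12, had a smaller SD than the average, 0.16. Taken on the log2 scale, the average stood at 13.24, 13.25 and 12.97 on T37 replicates 1, 2 and 3, and at 12.66, 12.96 and 12.99 on RED replicates 1, 2 and 3. T37 replicates 1 and 2 were above every RED array, but T37 replicate 3 lay just under RED replicate 3, so the groups overlapped. The means were 13.16 ± 0.16 (SD, n = 3) for T37 and 12.87 ± 0.18 (SD, n = 3) for RED. The difference was 0.29 (SE 0.18, 95% interval -0.16 to 0.73; limma adjusted p = 0.42), that is from 1.12-fold lower to 1.66-fold higher in T37. A 2-fold difference of the average in either direction lies outside this interval, whereas the interval of Hopscotch leaves out only a 2-fold lower level in T37. This bound does not hold for each PIAS row: that of RB, described below, reaches 5.36-fold higher in T37.

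**Figure D1:**
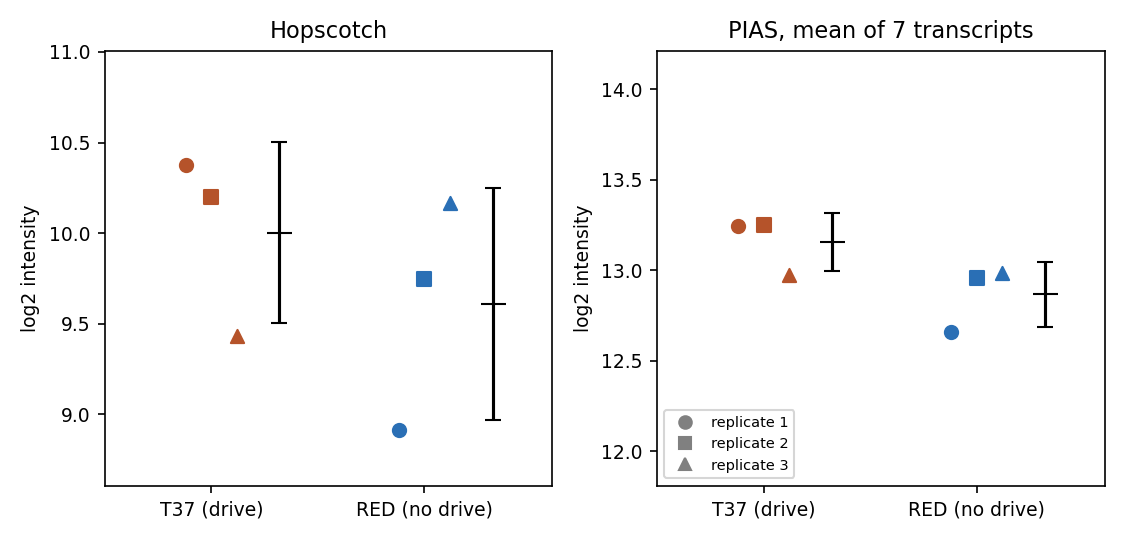
Log2 intensity of Hopscotch (left) and of PIAS averaged over its 7 transcripts (right) on each array, with T37 in orange and RED in blue, the marker shape giving the replicate number, and black bars giving mean ± SD of 3 arrays. Both panels span the same number of log2 units. The strains overlap in both, and Hopscotch, a single row, is more spread out than the average of the 7 PIAS rows.

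Neither gene passed the test: 0 of 2 were called by limma at an adjusted p under 0.05, and 0 of 2 at an unadjusted p under 0.05, beside 4.53% of all genes called at the adjusted threshold and 22.7% at the unadjusted one. Over all genes the median difference was -0.01 and the median size of a difference was 0.36 on the log2 scale, so both genes lay near the middle of the table. The smallest difference called in any gene was 0.75, which lies inside the interval of Hopscotch and just above the upper end of that of the PIAS average.

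The PIAS average hid 3 kinds of transcript. Of the 7 rows, RA, RC, RD and RH went one way across the arrays, RF and RJ another, and RB yet another. This grouping was made from the values and has no test. Brightness is not compared between the rows, since each row may rest on different features, and whether rows share features was not tested. The files give no sequence for them, so what sets the transcripts apart is not described here.

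RA, RC, RD and RH were nearly copies of one another. With each transcript centred on its own mean, any pair of them differed by a root mean square of 0.02 to 0.05 on the log2 scale over the 6 arrays, against a median of 0.43 between RA and all other transcripts of the table. Such closeness was not confined to this gene. In the least alike pair, RA and RC, 19 transcripts (0.14%) were nearer to RA than RC was, RD and RH among them. In the most alike pair, RC and RD, 0 were nearer. The intensity of RD, which stands for the 4, was 26382, 25665 and 22531 on T37 replicates 1, 2 and 3, and 18914, 22525 and 16585 on RED replicates 1, 2 and 3. T37 replicates 1 and 2 were the brightest in all 4 transcripts and RED replicate 3 was the dimmest. In RD the strains did not overlap, by the small gap between T37 replicate 3 and RED replicate 2, whereas in RA, RC and RH these 2 arrays lay in the opposite order.

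The differences of these 4 transcripts ran from 0.31 to 0.37 on the log2 scale, higher in T37, with limma adjusted p between 0.30 and 0.42 over all transcripts. RD was 1.29-fold higher in T37, or 0.37 on the log2 scale (SE 0.19, 95% interval -0.08 to 0.82; limma adjusted p = 0.30). Since the 4 rows move as 1, they count as little more than 1 measurement of the gene. They also make up most of the 7 rows behind the PIAS average.

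RF and RJ had the opposite sign. The intensity of RF was 4963, 5185 and 4968 on T37 replicates 1, 2 and 3, and 5258, 5908 and 7426 on RED replicates 1, 2 and 3. All 3 T37 arrays were below all 3 RED arrays, and RED replicate 3, the dimmest array for RA, RC, RD and RH, was the brightest for RF. RJ behaved alike, with 5067, 5468 and 4828 in T37 and 4721, 5852 and 7493 in RED, except that RED replicate 1 was its lowest array and the strains overlapped. The 2 rows differed from each other by a root mean square of 0.07.

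The T37 arrays of RF were unusually tight, with an SD of 0.04 on the log2 scale that was undercut by 1.82% of transcripts. Its means were 12.30 ± 0.04 (SD, n = 3) for T37 and 12.58 ± 0.25 (SD, n = 3) for RED. The strains thus differed by -0.28 (SE 0.19, 95% interval -0.74 to 0.17; limma adjusted p = 0.44). For RJ the difference was -0.21 (SE 0.22, 95% interval -0.74 to 0.32; limma adjusted p = 0.64). Both rest partly on RED replicate 3, and without it they were -0.15 and -0.04.

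RB was the row with the widest spread. Its intensity was 786, 804 and 460 on T37 replicates 1, 2 and 3, and 169, 246 and 616 on RED replicates 1, 2 and 3. RED replicates 1 and 2 lay below every T37 array, whereas RED replicate 3 lay above T37 replicate 3. On RED replicate 1 the value was under that array's 5th percentile of transcripts, an intensity of 195, so the lowest reading was at the dark end of the array. As with Hopscotch, the 3 highest readings fell on the 3 arrays with the lowest 5th percentile, and the part of the dim end of the arrays in the RB values was not tested. Setting every value below an array's 5th percentile to that percentile gave RB a difference of 1.10 (limma adjusted p = 0.24).

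The means of RB were 9.37 ± 0.46 (SD, n = 3) for T37 and 8.20 ± 0.96 (SD, n = 3) for RED. RB was 2.25-fold higher in T37, or 1.17 on the log2 scale (SE 0.52, 95% interval -0.09 to 2.42; limma adjusted p = 0.25), with an interval from 1.06-fold lower to 5.36-fold higher. A difference of larger size was seen in 7.22% of transcripts. RB did not pass the test with all 6 arrays weighted equally.

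RB passed when RED replicate 3 was left out. The difference was then 1.70 (95% interval 0.90 to 2.503; limma adjusted p = 0.039), beside 7.19% of all transcripts called in that fit. Without the third replicates of both strains the difference was 1.96 (95% interval 1.38 to 2.55; limma adjusted p = 0.0053), where 32% of all transcripts were called. T37 replicate 3 held the lowest T37 reading of RB (460) and RED replicate 3 the highest RED reading (616). Leaving out both thus removed the arrays in which the strains overlapped, so a wider difference was built in and that pass is no separate support. In both fits without RED replicate 3, the RED readings of RB were 169 and 246, on replicates 1 and 2. The 5th percentiles of those arrays were intensities of 195 and 175, so both readings were near the dark end. Raising dim values was tried with all 6 arrays only, so the part of the dim end in these passes was not tested. With arrays weighted by their fit the difference was 1.76 (limma adjusted p = 0.0095), where 29.3% were called. Leaving out any other single array gave 0.77 to 1.43, none past the threshold. With all 6 arrays weighted equally, 4.38% of all transcripts were called, fewer than in the 3 fits in which RB passed.

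**Figure D2:**
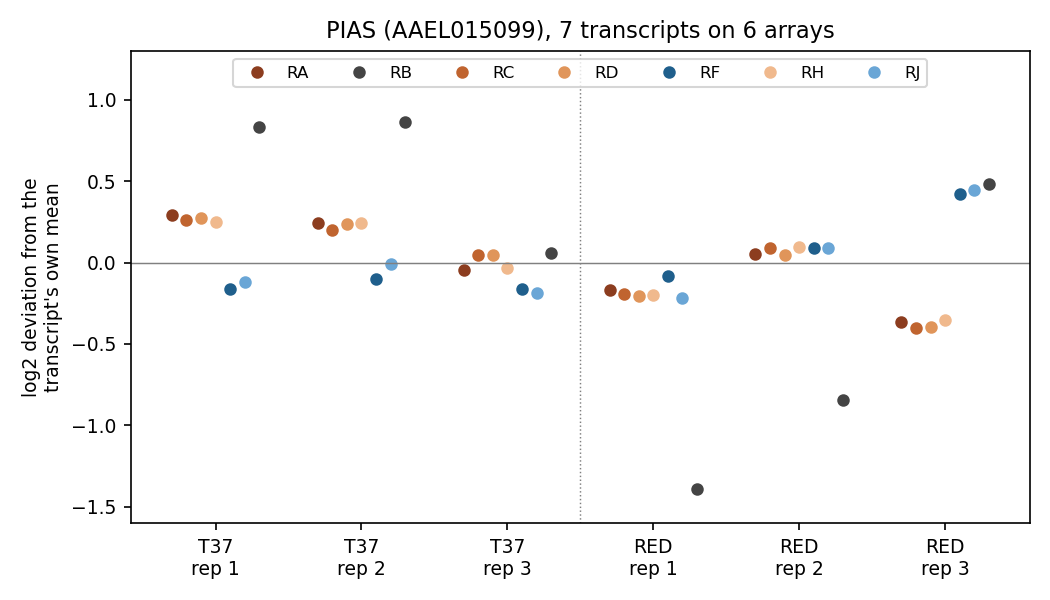
Deviation of each PIAS transcript from its own mean over the 6 arrays, in log2 units, with 1 column of 7 points per array (T37 left of the dotted line, RED right of it). RA, RC, RD and RH (browns) sit together on every array, RF and RJ (blues) sit together, and RB (grey) spans the widest range; on RED replicate 3 the browns are at their lowest and the blues at their highest.

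Across the 7 PIAS transcripts, 5 had a positive difference and 2 a negative one, and 0 of 7 were called by limma at an adjusted p under 0.05, with 0 of 7 at an unadjusted p under 0.05, beside 4.38% and 22.7% of all transcripts. Strain groups did not overlap in 2 of the 7, RD with T37 higher and RF with T37 lower, beside 28.7% of all transcripts, made up of 15.3% higher and 13.4% lower in T37. The share of 2 in 7 is close to that background.

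It was next asked whether the PIAS transcripts differed between strains by unequal amounts, which bears on the mix of transcripts rather than on the total. The differences ranged over 1.45 on the log2 scale, from RF to RB, which was rank 11 among the 506 genes with several transcripts, where the median range was 0.14. Most of those genes have fewer transcripts, and more transcripts make a wide range likelier. By limma's diffSplice, which tests all transcripts of a gene together, PIAS reached an unadjusted p of 0.020 and an adjusted p of 0.67, beside 0.198% of the genes called at the adjusted and 4.15% at the unadjusted threshold. Tested one by one against the others, 0 of the 7 were called (2 at an unadjusted p under 0.05, RB and RF), beside 0.172% of such transcripts at the adjusted and 4.3% at the unadjusted threshold. With array weights diffSplice called RB and RF, beside 3.26%. Without RED replicate 3 the gene passed (diffSplice adjusted p = 0.0040, beside 1.19% of genes), as did RB alone among its transcripts (beside 1.12%), and without the third replicates of both strains it passed too (diffSplice adjusted p = 0.0015, beside 3.36% of genes and 2.58% of transcripts). In the fits without RED replicate 3, the RED readings of RB were the dim ones described above. The diffSplice test takes the rows of a gene as separate measurements, which near copies such as RA, RC, RD and RH are not.

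Each transcript was therefore also set against the mean of the other 6 on the same array, so that each array gives 1 value per transcript; this comparison was chosen after the data were seen. The gap sets different rows against each other, so only its shift from array to array is read and not its level. A shift can come from the transcript or from the rows it is set against, and the gaps of different transcripts share rows. The gap of RF to the others was -1.13, -1.06 and -0.81 on T37 replicates 1, 2 and 3, and -0.35, -0.50 and -0.15 on RED replicates 1, 2 and 3. All T37 arrays were below all RED arrays, RED replicate 3 included. The gap of RJ showed the same order of strains, with -1.09, -0.97 and -0.86 in T37 and -0.53, -0.52 and -0.13 in RED.

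The gap of RF differed between strains by -0.67 (SE 0.13, 95% interval -0.99 to -0.35), at a limma adjusted p of 0.075 over the 1164 transcripts of such genes. That of RJ differed by -0.58 (SE 0.13, 95% interval -0.91 to -0.25; limma adjusted p = 0.11). Neither passed the threshold, at which 1.89% of these transcripts were called; RF and RJ were the 2 of 7 at an unadjusted p under 0.05, beside 15.7%. As near copies they are not separate evidence. The intensities of RF and RJ themselves differed by -0.28 and -0.21, so the larger part of each gap lay in the rows they were set against. Those rows include RB, which itself differed by 1.17. Groups that did not overlap were found in 21.5% of these transcripts. The SDs of the RF gap were 0.17 in T37 and 0.18 in RED (n = 3 each), beside the difference of -0.67, which did not pass over all transcripts.

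For RB the gap was -4.23, -4.20 and -4.82 in T37 and -6.14, -5.85 and -4.34 in RED. RED replicate 3 lay among the T37 arrays, unlike for RF and RJ. The difference was 1.03 (SE 0.51, 95% interval -0.24 to 2.29; limma adjusted p = 0.46). Without RED replicate 3 it was 1.58 (95% interval 0.99 to 2.17; limma adjusted p = 0.036), beside 4.90% of these transcripts called, and RF (-0.58, limma adjusted p = 0.066) and RJ (-0.45, limma adjusted p = 0.060) stayed just short. Without the third replicates of both strains, RB, RF and RJ all passed, at 1.78, -0.67 and -0.51 (limma adjusted p = 0.011, 0.029 and 0.038), beside 9.36% called, with 2 arrays a strain. For RB the arrays left out held the lowest T37 gap and the highest RED gap, so a wider difference was built in. In both fits without RED replicate 3, the RB gap in RED also rested on the dim readings described above. The intensities of RF and RJ themselves then differed by only -0.14 and 0.0022 on the log2 scale. Their gaps thus lay mostly in the rows they were set against. Those rows include RB, which itself then differed by 1.96, so the 3 gaps are not separate results.

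The gaps of RA, RC, RD and RH also moved with RED replicate 3. With all arrays they differed between strains by 0.02 to 0.10, and without that array by -0.17 to -0.10, so the sign turned. None of these passed the test (limma adjusted p of 0.20 or more).

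**Figure D3:**
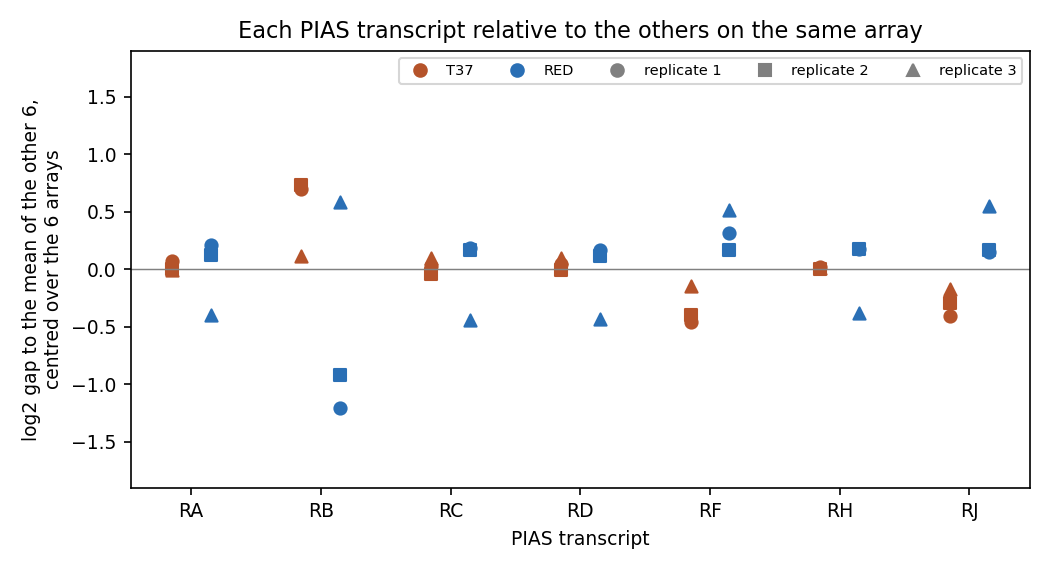
Gap of each PIAS transcript to the mean of the other 6 on the same array, in log2 units, centred over the 6 arrays for each transcript, with T37 in orange and RED in blue and the marker shape giving the replicate number. In RF and RJ every T37 point is below every RED point, whereas in RB the triangle of RED replicate 3 lies among the T37 points.

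**Figure D4:**
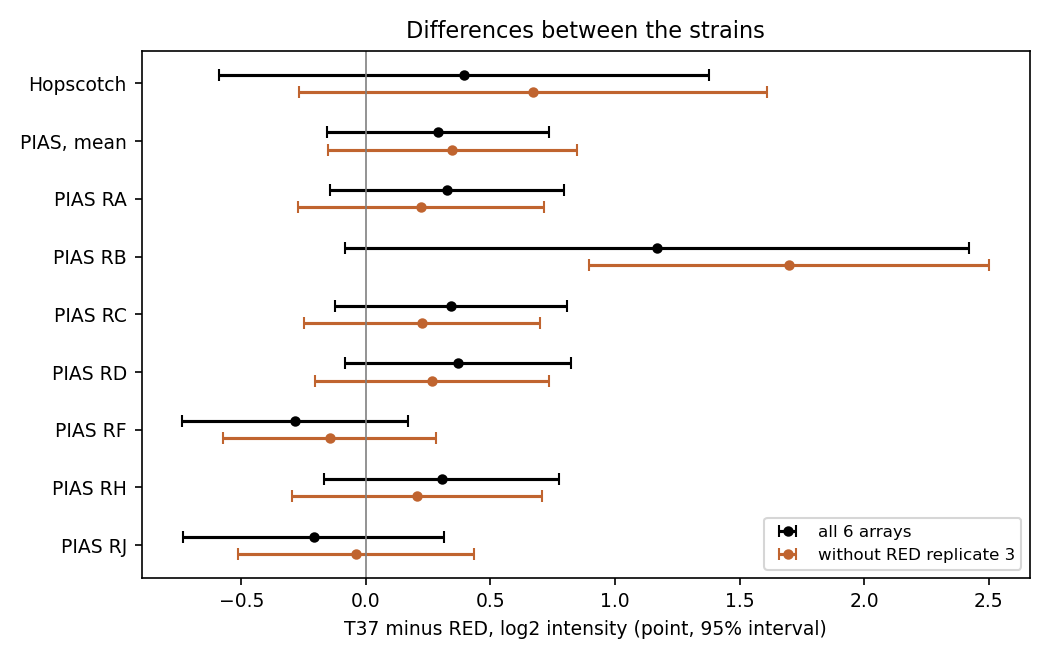
Difference between strains (T37 minus RED, log2 intensity) of Hopscotch, of the PIAS average and of the 7 PIAS transcripts, as points with 95% intervals from the limma fit, with all 6 arrays (black) and without RED replicate 3 (orange). Every black interval includes 0, and among the orange ones that of RB does not.

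Hopscotch and PIAS were also compared by their course over the 6 arrays. Between Hopscotch and the PIAS transcripts, centred on their means, the root mean square difference was 0.44 (RJ) to 0.50 (RF), against a median of 0.58 between Hopscotch and all transcripts, and 20.0% to 33.7% of the transcripts were nearer to Hopscotch than the PIAS rows were. From RB, 3.15% of all transcripts were nearer than Hopscotch was. The gene with the course most like Hopscotch was AAEL010395, at a root mean square difference of 0.10 against a median of 0.59 over all genes. For the PIAS average it was AAEL001124, at 0.03 against a median of 0.40. These likenesses rest on 6 arrays that share the structure described above. AAEL010395 and AAEL001124 did not pass the test between strains (limma adjusted p = 0.65 and 0.45). Their choice by likeness to Hopscotch and the PIAS average made that outcome likely, so it adds nothing.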

How the data were processed

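The deposited values are linear intensities, 1 for each transcript on each array, and were made by the authors with RMA, per the submitters' processing notes, from one-colour NimbleGen arrays labelled with Cy3, per the labels' protocols. RMA corrects background and includes a step that pulls the arrays' distributions together, which can hide a general shift in 1 strain; the deposited distributions still differed at the dim end. For the array design, probe sequences, annotation and genome build, the sources used here give nothing. Of the identifiers, 0 were found in a reference table of 19623 genes (AaegL5.0), so no sequence, position, further pathway gene or tissue marker is given.

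Intensities were converted to log2 without a pseudocount, and a gene's value is the mean log2 of its transcripts. T37 and RED were tested against each other by limma 3.58.1, run in R 4.3.3 (lmFit, eBayes, two-sided, no covariate, no filter) on all 6 arrays, with Benjamini-Hochberg adjustment over all genes or all transcripts and a threshold of 0.05. Intervals are 95% intervals of the moderated fit. An exact permutation test of 3 arrays against 3 cannot go below p = 0.1 and was not used. The number of arrays limits the precision. Unequal differences of transcripts were tested with diffSplice. The procedure was run on simulated data with independent noise on each array and row. Those data had no array that stood apart and no near-copy rows, so the run does not vouch for the tests under these conditions. Alternatives were other scalings, filters on dim rows, raised dim values, other eBayes priors, array weights, a replicate block, arrays left out and linear averaging of transcripts. The members were named whatever their values, with 1 gene each whose centred course over the arrays was nearest. Members and tests were chosen with earlier results of these data known.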

Additional observations from a re-analysis of the deposited data

How the results depend on the processing

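Hopscotch kept its sign and stayed short of the threshold in all 17 alternatives that gave a value (differences of 0.04 without RED replicate 1 to 0.96 without the third replicates of both strains, limma adjusted p of 0.055 to 0.97), and the PIAS average did so in all 18 (0.18 to 0.44, limma adjusted p of 0.084 to 0.77). Hopscotch gave no value without the dimmest 50% of genes, and RB none without the dimmest 25% or 50% of transcripts; Domeless and STAT were not analysed here. RB passed with array weights (1.76) and ranged from 0.77 to 1.96 when arrays were left out. RJ ranged from -0.37 to 0.0022, positive only without the third replicates of both strains. The diffSplice adjusted p of PIAS was 2.65e-05 with array weights and 0.0015 to 1 when arrays were left out; it was 0.0040 without RED replicate 3. Of the 7 PIAS transcripts, diffSplice called 0 against the others (2 at an unadjusted p under 0.05, beside 4.3% of all such transcripts), 2 with array weights (beside 3.26%) and 0 to 1 when arrays were left out; the gap per array called 0 (2 at an unadjusted p under 0.05, beside 15.7%), 1 without RED replicate 3 (beside 4.9%) and 3 without the third replicates (beside 9.36%). The cause of these changes was not tested. Gaps within a gene share rows, so the 3 calls without the third replicates are not separate results.

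Over all genes, 580 were called, 312 higher and 268 lower in T37; array weights gave 3841 (1985 and 1856) and leaving out arrays 10 to 4221 (5 to 1807 higher, 5 to 2414 lower). A replicate block left 0 genes called by limma (0 higher and 0 lower in T37), with 2467 at an unadjusted p under 0.05; Hopscotch then had an adjusted p of 0.72, the PIAS average 0.53 and RB 0.38, and the block changed no call of a member. Replicate numbers did not pair the arrays: deviations of same-numbered arrays correlated at -0.25, -0.16 and -0.17, and none was closest to the array of its own number. Differently numbered arrays did correlate: T37 replicate 3 with RED replicate 1 at 0.46, T37 replicate 1 with RED replicate 2 at 0.42, and T37 replicate 2 with RED replicate 3 at 0.37. All other pairs were negative, and whether arrays of the strains share a batch was not tested.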
